A study of Caenorhabditis elegans with 6 samples.

Results

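miR-70 and miR-76 are microRNAs (miRNAs) of Caenorhabditis elegans whose genes lie on chromosomes V and III. They are 2 of the 108 miRNA oligos on the arrays. They were chosen by their measured array signal: of the autosomal miRNAs outside the miR-35 family, both had less signal in fem-3(q20ts) animals, compared with fem-2(b245ts) animals, in each of the 2 biological replicates. The difference between these genotypes is therefore given for them as a description, with no test. Both oligos passed the filter on low signal, as did 94 of the 108.

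The study measured miRNAs in whole adults on day 1 of adulthood, grown at 25 °C and collected 24 hours after the late L4 larval stage, with no treatment. The groups were the temperature-sensitive germline mutants fem-3(q20ts) and fem-2(b245ts), and no wild-type animals were analysed here. Each genotype had 2 biological replicates on 3 arrays, the first replicate on 2 technical arrays and the second on 1. Short RNAs were gel-purified, ligated to a Cy3-labelled oligonucleotide and hybridised to 1-colour spotted arrays on which each oligo had 4 spots. The RNA came from whole animals, so that fewer cells of a type and less RNA per cell cannot be told apart.

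miRNAs are cut from hairpin transcripts and guide Argonaute proteins to messenger RNAs that pair with the seed at the 5′ end of the miRNA, which lowers the output of those messengers. The fem genes act in the pathway that sets sexual fate. At the restrictive temperature the gain-of-function allele fem-3(q20ts) is known to give a germ line that makes sperm and no oocytes, and the loss-of-function allele fem-2(b245ts) one that makes oocytes and no sperm. The mutants therefore differ in their gametes. The miR-35 family is known from the oocyte and the early embryo, where its loss is lethal.

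The arrays were scaled by the authors to one total, and their median spot intensity lay between 101 and 178. The empty Buffer spots had a 95th percentile of 19.0 to 127, taken here as the level of each array above which an oligo is called detected. Between 63 and 104 miRNA oligos of an array were above it. The oocyte miRNAs miR-35 to miR-41 made up 0.353% to 0.478% of the miRNA signal on the fem-3(q20ts) arrays, against 11.8% to 14.2% on the fem-2(b245ts) arrays, in the direction of the genotype labels. Among miRNAs that mark somatic tissues, the log2 difference, fem-3(q20ts) minus fem-2(b245ts), was -0.17 for miR-1 of muscle, 0.75 for miR-60 of the intestine and 0.41 for miR-124 of neurons. It was 1.18 for lin-4, 0.14 for let-7, 0.20 for miR-58 and -0.05 for miR-71, which are found in several somatic tissues, and the neuronal miR-273 was too dim to be tested. The part of tissue make-up in the values of miR-70 and miR-76 was not tested.

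The gene mir-70 lies inside the span of pmp-5, a gene related to peroxisomal membrane transporters, in the WBcel235 annotation. The gene mir-76 overlaps no other gene there and lies between mec-12, which encodes an alpha-tubulin of touch receptor neurons, and nssp-28. The nearest miRNA genes of the array on either side are mir-253 and mir-256 for mir-70, and mir-66 and mir-67 for mir-76. miR-66 belongs to the miR-64 cluster and had a log2 difference, fem-3(q20ts) minus fem-2(b245ts), of -0.18 (SE 0.30). The difference was -0.24 (SE 0.49) for miR-67 and -0.18 (SE 0.96) for miR-253. Their within-replicate values were -0.30 and -0.06 for miR-66, -0.65 and 0.17 for miR-67, and -0.15 and -0.21 for miR-253. miR-256 did not pass the filter on low signal.

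miR-70 was lower in fem-3(q20ts). Its intensity was 531 and 359 on the arrays of replicate 1 and 445 on the array of replicate 2 in fem-3(q20ts), against 1013 and 509 on the arrays of replicate 1 and 720 on the array of replicate 2 in fem-2(b245ts). The brightest fem-3(q20ts) array thus lay above the dimmest fem-2(b245ts) array, and the 2 sets of arrays overlapped. With technical arrays averaged, miR-70 had an intensity of 445 in both fem-3(q20ts) replicates, against 761 and 720 in the fem-2(b245ts) replicates. The mean was 445 ± 0.0857 in fem-3(q20ts) and 740 ± 29.3 in fem-2(b245ts) (SD, n = 2 biological samples each). The small SD in fem-3(q20ts) hides the spread of its technical arrays, which differed by 0.57 on the log2 scale. The log2 difference between genotypes was -0.70 (SE 0.29 from limma, which shares the spread across oligos), a 1.63-fold lower signal. It was -0.71 within replicate 1 and -0.70 within replicate 2.

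miR-76 was a dimmer oligo with a difference of like size. Its intensity was 78.8 and 72.4 on the arrays of replicate 1 and 85.0 on that of replicate 2 in fem-3(q20ts), against 199 and 92.4 on the arrays of replicate 1 and 120 on that of replicate 2 in fem-2(b245ts). All 3 fem-3(q20ts) arrays lay below all 3 fem-2(b245ts) arrays, as for 12 of the 94 tested miRNAs (12.8%) and for 3 of the 54 autosomal ones outside the miR-35 family (5.56%), the others being miR-61 and miR-43. The closest arrays, 85.0 and 92.4, were nearer to each other than the 2 technical arrays of fem-2(b245ts). Averaged over technical arrays, miR-76 was at 75.6 and 85.0 in the fem-3(q20ts) replicates, against 146 and 120 in the fem-2(b245ts) replicates. Its mean was 80.3 ± 6.62 in fem-3(q20ts) and 133 ± 18.2 in fem-2(b245ts) (SD, n = 2 each), a log2 difference of -0.65 (SE 0.30) and a 1.57-fold lower signal. It was -0.84 within replicate 1 and -0.47 within replicate 2.

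**Figure D1:**
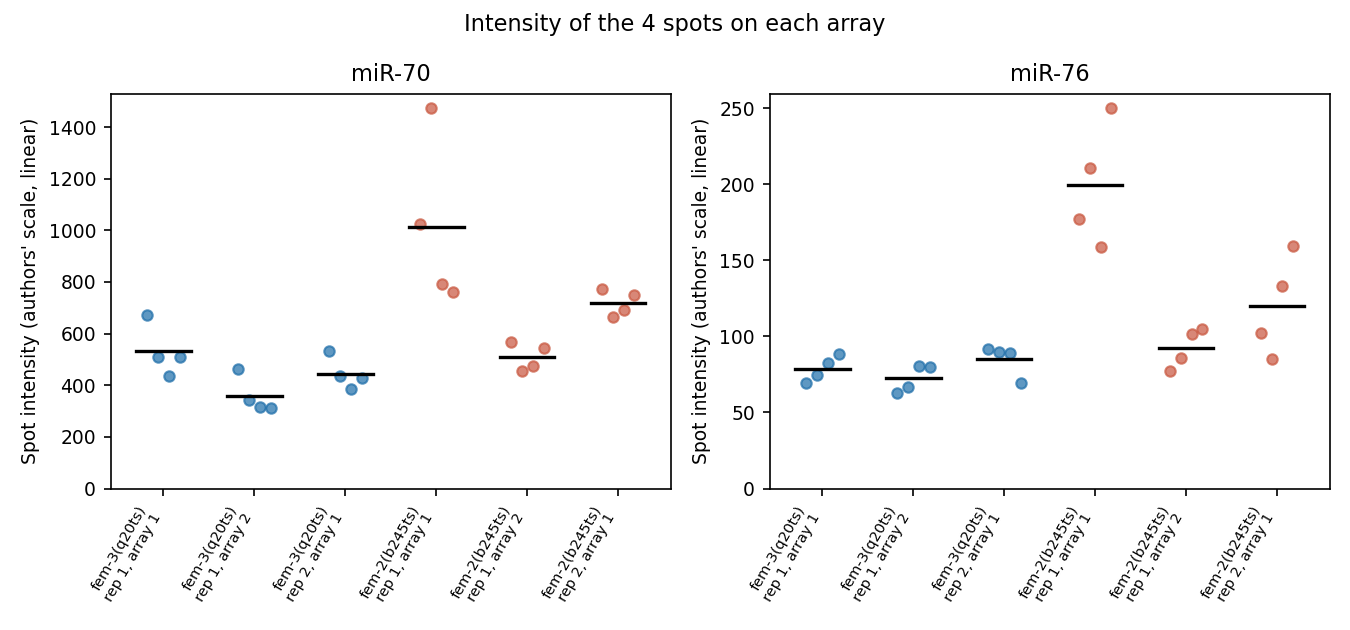
Linear spot intensity on the authors' scale for miR-70 (left) and miR-76 (right), with each point 1 of the 4 spots of an array and each black line their mean. The array with the highest mean for both miRNAs, 1013 and 199, is technical array 1 of fem-2(b245ts) replicate 1.

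As a share of the miRNA signal of an array, miR-70 made up 0.598%, 0.403% and 0.467% on the fem-3(q20ts) arrays, against 1.30%, 0.671% and 0.774% on the fem-2(b245ts) arrays. By this measure all 3 fem-3(q20ts) arrays were below all 3 fem-2(b245ts) arrays, whereas by intensity they overlapped. How many of the other tested miRNAs separate by this measure was not counted, so that nothing is read from it. The share of miR-76 was 0.0888%, 0.0813% and 0.0892% in fem-3(q20ts), against 0.256%, 0.122% and 0.129% in fem-2(b245ts). The share uses a total that includes miR-35 to miR-41, which take up more of the signal in fem-2(b245ts). That total was nonetheless lower on the fem-2(b245ts) arrays than on the fem-3(q20ts) arrays in both replicates, which raises the fem-2(b245ts) shares.

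Detection differed between the pair. miR-70 was above the Buffer level on all 6 arrays, by 8.64 to 23.4 times in fem-3(q20ts) and 4.48 to 33.5 times in fem-2(b245ts). miR-76 was 1.74 to 4.47 times that level on the fem-3(q20ts) arrays. In fem-2(b245ts) it was 1.57 and 5.59 times that level on 2 arrays. On the third, technical array 2 of replicate 1, it was 0.812 times that level. There miR-76, at 92.4, was below the 95th percentile of the Buffer spots but above their median of 12.2. The Buffer level of the replicate 1 arrays was itself lower in fem-3(q20ts), at 36.5 and 41.5, against 127 and 114 in fem-2(b245ts). In replicate 2 it was 19.0 in fem-3(q20ts) and 21.5 in fem-2(b245ts). With the median Buffer spot subtracted, the log2 difference, fem-3(q20ts) minus fem-2(b245ts), was -0.71 for miR-70 and -0.67 for miR-76. That setting takes off the median of the Buffer spots and not their 95th percentile. The part of this background in the miR-76 difference was not tested beyond this value.

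The 4 spots of an oligo give its spread within an array. For miR-70 their coefficient of variation was 18.7%, 19.8% and 14.0% on the fem-3(q20ts) arrays, against 32.4%, 10.6% and 7.23% on the fem-2(b245ts) arrays. For miR-76 it was 10.8%, 12.7% and 12.4% in fem-3(q20ts), against 20.2%, 14.4% and 27.5% in fem-2(b245ts). In replicate 1 the least even spots of both miRNAs were thus on technical array 1 of fem-2(b245ts). Saturated pixels were at 0% on all spots of both miRNAs in the 4 scanner files.

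Technical array 1 of fem-2(b245ts) replicate 1 stood apart around these spots. The standard deviation of the local background, a measure of how uneven the glass is beside a spot, was 290 to 455 at the miR-70 spots and 297 to 341 at the miR-76 spots of this array. On technical array 2 of the same RNA it was 11.1 to 13.2 at the miR-70 spots and 11.7 to 21.3 at the miR-76 spots. On the fem-3(q20ts) arrays of replicate 1 it was 12.3 to 91.5 at the miR-70 spots and 12.4 to 218 at the miR-76 spots. Both oligos were printed in columns 9 to 12 of print block B, miR-70 in row 2 and miR-76 in row 4. One miR-70 spot of that array had a mean pixel intensity of 1568 before background subtraction, a median of 791 and a peak of 15243, and failed the scanner's own status for signal variation, which the other miR-70 spots of replicate 1 passed. All 4 miR-76 spots of the array failed the status for signal to noise, with scores of 0.235 to 0.445, against 4.27 to 9.50 on technical array 2. On technical array 1 of fem-3(q20ts), 2 of the 4 miR-76 spots failed it as well. Over whole arrays, the share of spots with a background SD over 100 was 5.21% and 2.95% on the fem-3(q20ts) arrays of replicate 1, against 17.0% and 1.56% on the fem-2(b245ts) arrays.

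Between these 2 arrays of one fem-2(b245ts) RNA sample, miR-70 differed by 0.95 and miR-76 by 1.10 on the log2 scale (array 1 minus array 2), the 6th and the 2nd largest positive values of the 94 tested miRNAs. Both exceed in size the differences of 0.70 and 0.65 between the genotypes. The levels are unlike, as the genotype values are means over both replicates with technical arrays averaged first, and these gaps are between single arrays. Brighter values there went with both the background and the print block. Of the 12 other tested miRNAs whose background SD on array 1 was over 100, all 12 were brighter on array 1, with a median of 0.80. Of the 80 tested miRNAs at or under 100, 35 were brighter on array 1, with a median of -0.05. The limit of 100 was chosen after seeing the data. By print block, all 19 tested miRNAs of block B were brighter on array 1, with a median of 0.77, and so were all 23 of block A, with a median of 0.56, against 7 of the 52 of blocks C and D. In block A 22 of the 23 had a background SD at or under 100, and the 6 such miRNAs of block B were brighter too, with a median of 0.43. The 13 of block B over 100 had a median of 0.85. The split by background SD is thus also largely a split by block, and the parts of background and block were not tested.

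**Figure D2:**
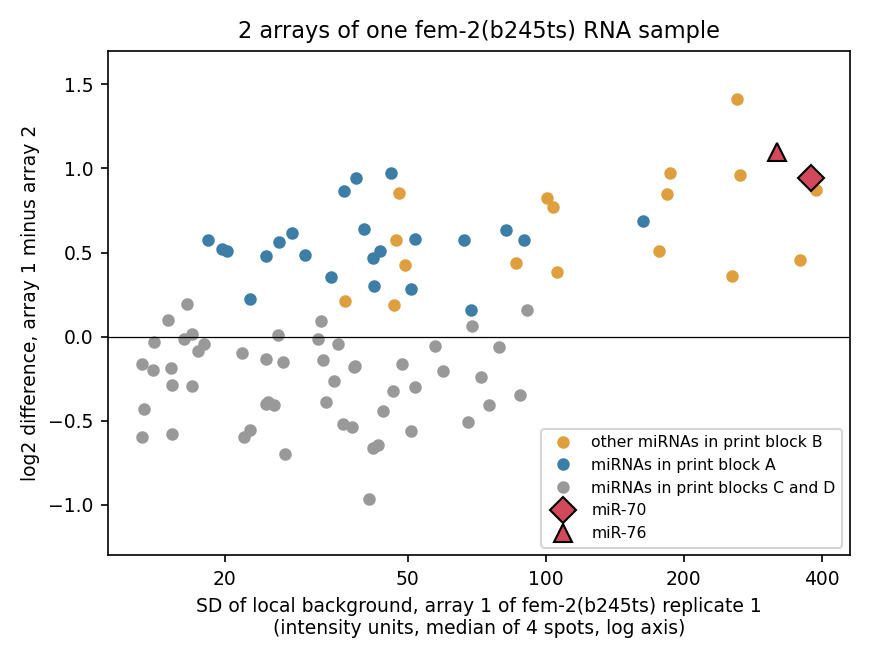
Each point is 1 of 94 tested miRNAs, with the SD of the local background on technical array 1 of fem-2(b245ts) replicate 1 on a log axis and, on the vertical axis, the log2 difference of array 1 minus array 2 of that RNA sample. miR-70 (0.95) and miR-76 (1.10) lie at the right, where all 14 miRNAs with a background SD over 100 are above 0, as are all 23 miRNAs of block A and all 19 of block B at any background SD.

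The same 12 miRNAs had a median log2 difference between genotypes of -0.30 within replicate 1, with 9 of 12 lower in fem-3(q20ts), and of 0.08 within replicate 2, with 5 of 12 lower. For the 80 at or under 100 the medians were 0.24 and 0.12, with 27 of 80 lower in replicate 1 and 34 of 80 in replicate 2. By block, the 17 other miRNAs of block B had medians of -0.27 in replicate 1 and 0.03 in replicate 2, and the 23 of block A had 0.21 and 0.42. The replicate 2 values of the pair do not use the uneven array, but their sign was required by the choice of members. Their replicate 2 values of -0.70 and -0.47 were the 15th and 19th lowest of the 94, against 14th and 12th in replicate 1. Without technical array 1 of fem-2(b245ts), a choice made after seeing the data, the replicate 1 difference was -0.23 for miR-70 and -0.29 for miR-76, and the mean of both replicates was -0.47 (SE 0.35) for miR-70 and -0.38 (SE 0.34) for miR-76. Without that array the pair ranked 15th and 20th from the lowest. With the median of a spot's pixels in place of their mean, also chosen after seeing the data, the replicate 1 difference was -0.50 for miR-70 and -0.64 for miR-76. By pixel medians, array 1 of fem-2(b245ts) was at 742 for miR-70 and 134 for miR-76, where pixel means gave 1013 and 199. The part of the uneven array in the difference was not tested beyond these values.

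miR-70 and miR-76 were not at the edge of the range. Over all miRNAs, 8 of 94 passed the limma test between genotypes at an adjusted p under 0.05 (8.51%). The 7 lower in fem-3(q20ts) (7.45%) were miR-35 to miR-41, and the 1 higher (1.06%) was miR-243. In the order of the mean difference the pair stood 12th and 13th from the lowest, below the tested median of 0.14 by 0.84 and 0.79 on the log2 scale. miR-35 to miR-41 lay between -6.22 and -3.90. At the other end was miR-243, at 1.89, which is known to bind the Argonaute protein RDE-1.

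Over all 94 tested miRNAs, 29 were lower in fem-3(q20ts) in both replicates (30.9%). Of the 54 autosomal miRNAs outside the miR-35 family, 14 were lower in fem-3(q20ts) in both replicates (25.9%), 28 were higher in both (51.9%) and 12 were mixed, with a median log2 difference of 0.27. Among the 24 X-linked miRNAs 6 were lower in both replicates (25%), 15 were higher in both, and the median was 0.22. By mean difference miR-70 and miR-76 stood at places 3 and 4 from the lowest of the 14. Next below them was miR-43, whose gene lies beside those of miR-42 and miR-44, at -0.87 (SE 0.34), with -1.28 in replicate 1 and -0.46 in replicate 2. Next above them was miR-272, at -0.64 (SE 0.87). The one lower in both replicates and nearest to 0 was miR-71, a miRNA known for its role in lifespan, at -0.05 (SE 0.31). On the other side of 0 lay miR-231 at 0.02 (SE 0.46), and miR-252, at -0.02 (SE 0.45), had opposite signs in the replicates. Without technical array 1 of fem-2(b245ts), 11 of the 54 were lower in both replicates, and all 11 were among the 14. The replicate 1 and replicate 2 differences of miR-70, -0.71 and -0.70, were the closest to each other of the 14. Without that array they were -0.23 and -0.70, and with technical array 2 alone in both genotypes -0.52 and -0.70.

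**Figure D3:**
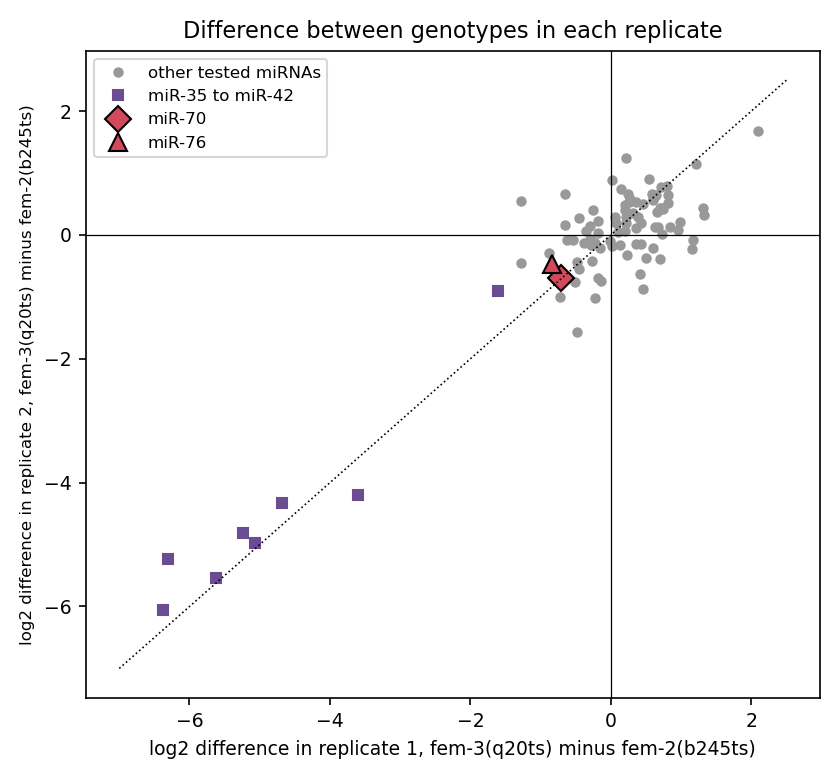
Log2 difference, fem-3(q20ts) minus fem-2(b245ts), in replicate 1 (horizontal) and replicate 2 (vertical) for the 94 tested miRNAs, with a dotted line where both are equal. miR-70 at -0.71 and -0.70 and miR-76 at -0.84 and -0.47 lie in the lower left part of the main cloud, as does miR-272 (-0.51 and -0.76). miR-42 of the miR-35 family (-1.60 and -0.90) lies further out, and miR-35 to miR-41 lie far below.

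The scaling of the arrays moved both miRNAs together with the rest. Scaled on the spike control, an oligo that was brighter on the fem-2(b245ts) arrays, the differences were -0.14 for miR-70 and -0.09 for miR-76, and the median of all tested miRNAs was 0.70. After centring on the median miRNA the differences were -0.34 and -0.29, with the median of all at 0.50. When the array total left out the miR-35 family they were -1.03 and -0.98, with the median at -0.19. These 3 scalings shift all oligos of an array alike, so that the distance to the median of all tested miRNAs stays at -0.84 for miR-70 and -0.79 for miR-76 by construction. Quantile normalization, which can change it, gave -0.96 and -0.62. In replicate 2 miR-76 turned to 0.16 on the spike control and to 0.03 after quantile normalization, so that it was then not lower in both replicates.

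**Figure D4:**
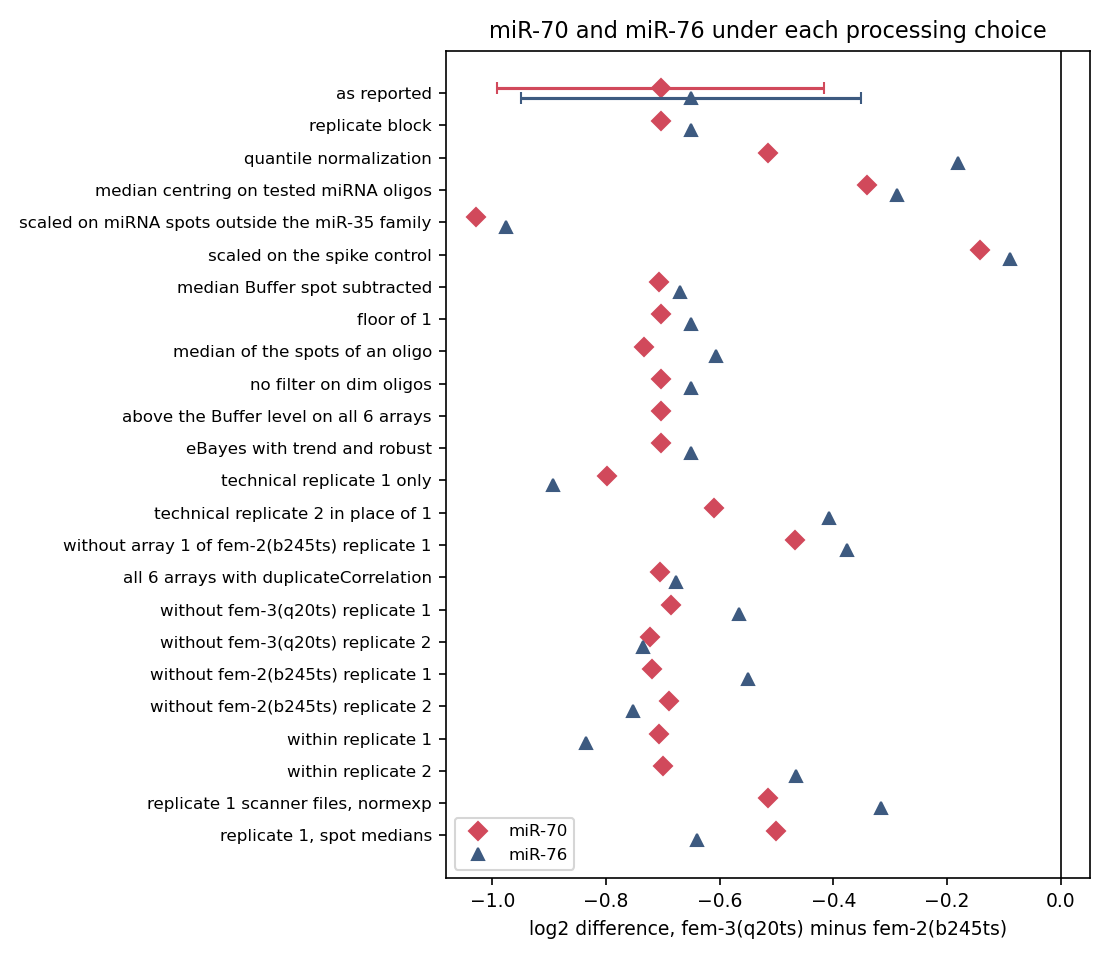
Log2 difference, fem-3(q20ts) minus fem-2(b245ts), of miR-70 (diamonds) and miR-76 (triangles) under each processing choice, with bars of 1 SE on the reported values. All values lie below 0, between -1.03 and -0.09.

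The contrast between biological replicates was not used to choose the pair and was tested. Its error, with the genotype as a term, rests partly on the gap between the 2 within-replicate genotype differences. The choice of the pair used the signs of those differences, so that the error is not independent of the choice. For replicate 1 minus replicate 2, with the genotype as a term, miR-70 had a log2 difference of -0.03 (SE 0.17, 95% interval -0.53 to 0.47, limma adjusted p = 0.881) and miR-76 of 0.02 (SE 0.19, interval -0.57 to 0.60, limma adjusted p = 0.939). Among all tested miRNAs 4 of 94 passed (4.26%). For miR-70 the replicate difference was -0.04 in fem-3(q20ts) and -0.03 in fem-2(b245ts), and for miR-76 it was -0.17 in fem-3(q20ts) and 0.20 in fem-2(b245ts). Without technical array 1 of fem-2(b245ts) the values were -0.27 for miR-70 and -0.26 for miR-76 (limma adjusted p = 0.488 and 0.496). The replicate number coincides with a date-like token in the descriptions, so that the replicate and what that token stands for cannot be told apart.

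The profiles of miR-70 and miR-76 over the 6 arrays were close to each other. With each oligo centred on its own mean, the root mean square distance between them was 0.16 on the log2 scale, and each was the nearest to the other of all tested miRNAs. Both were chosen for a lower signal in fem-3(q20ts) in both replicates. The values on the 6 arrays hold that difference, so that the choice itself favours such closeness. The next nearest to miR-70 were miR-73 at 0.21 and miR-72 at 0.26. The next nearest to miR-76 were miR-43 at 0.26 and miR-73 at 0.27. The log2 differences of miR-72 and miR-73 between genotypes were -0.35 and -0.45. miR-72 and miR-73 were printed in row 3 of block B, between the rows of miR-70 and miR-76, and miR-73 in the same columns, whereas miR-43 was printed in block A. On technical array 1 of fem-2(b245ts) the background SD was 176 for miR-72, 358 for miR-73 and 81.9 for miR-43. For miR-72 and miR-73 the likeness thus comes with a place in the same print block, which miR-43 does not share. The part of the place on the arrays in the likeness was not tested.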

How the data were processed

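The members and lists were chosen with earlier results of these data known. Deposited intensity values on a linear scale were used: per the series' design text the authors scaled each array on its total, and per the file headers the scanner files of the 4 replicate 1 arrays also give a signal-to-noise score and the percent of saturated pixels per spot. The deposited table equalled mean spot minus median background intensity times 1 factor per array (tolerance 0.1%) on all spots of these arrays but 2. Replicate 2 was used without scanner files, with its oligo names taken from the layout of replicate 1. Scanner and software: not given in the sources used here.

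Values under 12.8, the 10th percentile of those above 0, were set to it. They were then log2-transformed and averaged over 4 spots, then over technical arrays, giving 4 biological samples. Nothing says how the biological replicates were grown, so errors cover only the spread between these samples, and the number of arrays limits their precision. An oligo was tested if its mean log2 value exceeded the log2 of 37.2, the geometric mean of the Buffer levels over the 4 biological samples. limma 3.58.1 in R 4.3.3 (lmFit, eBayes, two-sided, Benjamini-Hochberg) was run over all 94 miRNAs without a block, and tested on simulated data. An exact permutation test of 2 against 2 cannot go below p = 0.333. Gene context and chromosomes came from RefSeq's WBcel235 gene table, used for names and neighbours only (100 of 108 names matched). Replicate numbers were read as pairs from the shared token: the replicate differences of the genotypes correlated over the oligos (r = 0.711).

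Named besides the pair were the 3 miRNAs nearest to each in profile, the nearest miRNA genes, the neighbours in the order of the difference and around 0, and miR-35 to miR-41 and miR-243. Seed relatives, also in that rule, are not used here.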

Additional observations from a re-analysis of the deposited data

How the results depend on the processing

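The limits are 2 biological samples a genotype, 1 array with uneven background under both oligos, and for miR-76 a signal near the Buffer level. On technical array 1 of fem-3(q20ts) replicate 1, some miR-76 spots also had a raised background SD, of 217 and 218. Over 23 alternatives for miR-70 and 22 for miR-76 the difference between genotypes was negative. It moved by over 1 moderated SD after quantile normalization (miR-76 at -0.18), median centring (-0.34 and -0.29), a total without the miR-35 family (-1.03 and -0.98), scaling on the spike control (-0.14 and -0.0893) and, for miR-76 in replicate 1 alone, normexp background correction followed by quantile normalization (-0.32). Leaving out 1 biological sample gave -0.72 to -0.69 for miR-70 and -0.75 to -0.55 for miR-76, where a lone sample is assumed to vary like the others. With the replicate block the differences stayed at -0.70 and -0.65, with SEs of 0.17 and 0.19, and 9 miRNAs passed between genotypes, against 8 without it. With miRNAs above the Buffer level on all 6 arrays only, which leaves out miR-76, 4 of 59 passed. In the other alternatives 7 to 9 passed.

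The sign of the replicate difference, which passed in no setting (lowest limma adjusted p of 0.153 for miR-70 and 0.219 for miR-76), changed for miR-70 after quantile normalization (0.044), with a total without the miR-35 family (0.15) and with technical array 1 only (0.35). For miR-76 it changed on the spike control (-0.39), after Buffer subtraction (-0.15), with the median of the spots (-0.0172), with technical array 2 in place of 1 (-0.29) and without technical array 1 of fem-2(b245ts) (-0.26). Leaving out 1 sample, without the genotype term, gave -0.39 to 0.32 for miR-70 and -0.40 to 0.44 for miR-76, with -0.22 without fem-3(q20ts) replicate 2. The count of miRNAs passing between replicates was 11 after quantile normalization, 0 after median centring, 12 with a total without the miR-35 family, 51 on the spike control, 23 with the median of the spots, 7 with no filter, 0 with oligos above the Buffer level on all arrays, 0 with technical array 1 only, 10 with technical array 2, 26 without technical array 1 of fem-2(b245ts), 2 with no genotype term, and 0 to 2 with 1 sample left out, against 4 as reported. At an unadjusted p under 0.05, 26 passed as reported. The cause of these changes was not tested. The alternatives without that array and with pixel medians of spots were chosen after seeing the data.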
